A study of Mus musculus with 6 samples.

Results

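The heat shock genes described here are 10 mouse genes taken by symbol from the 43432 genes of the count tables. They are the Hsp70 genes Hspa1a, Hspa1b and Hspa8, the Hsp110 gene Hsph1, the Hsp90 genes Hsp90aa1 and Hsp90ab1, the co-chaperone gene Dnajb1, the mitochondrial chaperonin genes Hspd1 and Hspe1, and the transcription factor gene Hsf1. RNA-seq was done on neutrophils, sorted as CD45+ Ly6Ghi CD11b+ cells from enzymatically digested uteri of 4-week-old mice on the C57BL/6 strain. All mice, controls included, carried Pgrcre/+, in which the progesterone receptor gene drives Cre in uterine cells, and develop uterine tumours. The normoxia group (3 libraries) was kept in ambient oxygen, and the hyperoxia group (3 libraries) in a chamber at 60% oxygen for 10 days, from postnatal day 18 to day 28. The comparison asks what more oxygen for the host altered in neutrophils of the tumour-bearing uterus. The set was chosen by chaperone function with the hyperoxia minus normoxia differences of these libraries in view, so it counts as selected on that contrast. The members' differences are therefore described, with no test of the set. Calls of members by the fits over all genes are given only beside the share of all genes called.

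Libraries held 38683293 to 61715617 counts, and all 10 heat shock genes were among the 12908 genes that passed the filter on low counts. All 10 neutrophil markers examined had counts. Their summed level was 41032 to 59679 CPM (counts scaled to library size, with TMM for library composition) in normoxia and 40915 to 105944 CPM in hyperoxia. The 12 macrophage markers summed to 1409 to 1508 CPM in normoxia and 1906 to 3028 CPM in hyperoxia, and the 9 endothelial markers to 9.92 to 15.9 CPM and 28.2 to 67.0 CPM. In bulk RNA, more cells of a type and more RNA per cell cannot be told apart. The labels do not say that libraries came from separate animals, so spread and p-values refer to these samples and may be technical in part.

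Heat shock proteins are chaperones that bind unfolded or immature proteins and help them fold. Hsp70 proteins act on early folding states, with J-domain partners such as Dnajb1 that stimulate their ATPase and Hsp110 proteins that release their nucleotide, and Hsp90 acts later on kinases and receptors. In the mitochondrial matrix, Hspd1 (Hsp60) forms a folding chamber that Hspe1 (Hsp10) caps. Hsf1 is the factor that, on heat or other protein-damaging stress, binds heat shock elements, inverted repeats of nGAAn units, in front of the inducible genes. Hspa8 and Hsp90ab1 are known as the constitutive forms of Hsp70 and Hsp90, and Hspa1a, Hspa1b and Hsp90aa1 as more inducible.

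The sequences in front of the genes with the largest differences are shown first, because these genes are near-identical copies. Promoter sequences were found for 6 of the 10 genes in the RefSeq table of build GRCm38.p6 (Hspa1a, Hspa1b, Hsph1, Dnajb1, Hspd1 and Hspe1). Hspa1a and Hspa1b are intronless genes on the minus strand of chromosome 17, at chr17:34969190-34972156 (ENSMUSG00000091971) and chr17:34956436-34959238 (ENSMUSG00000090877) in GRCm38, 9951 bases apart. Their 250 bases upstream of the start site differ at 3 bases. They are printed 5′ to 3′ on the minus strand, with capitals on the only stretch in each that matches a pair of heat shock units, GAANNTTC or TTCNNGAA.
Hspa1a, chr17:34972157-34972406: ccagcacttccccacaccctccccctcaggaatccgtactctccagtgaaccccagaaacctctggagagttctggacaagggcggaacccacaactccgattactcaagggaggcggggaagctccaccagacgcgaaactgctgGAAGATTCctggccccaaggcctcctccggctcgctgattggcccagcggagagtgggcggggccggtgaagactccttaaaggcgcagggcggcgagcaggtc
Hspa1b, chr17:34959239-34959488: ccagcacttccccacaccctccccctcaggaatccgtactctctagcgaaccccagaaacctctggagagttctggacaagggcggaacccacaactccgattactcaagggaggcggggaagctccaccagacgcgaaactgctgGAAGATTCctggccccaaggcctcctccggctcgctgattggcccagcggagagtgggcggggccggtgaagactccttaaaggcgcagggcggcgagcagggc

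In both genes the capitals stand 104 to 97 bases before the start site. The letters GAANNTTC occur in 6.69% and TTCNNGAA in 7.16% of 32817 RefSeq upstream windows of the same length. Each of these motifs is its own reverse complement, so 1 search covers both strands. A match is a description of letters and not evidence of binding.

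Hspd1 and Hspe1 lie head to head on chromosome 1, at chr1:55077835-55088243 on the minus strand and chr1:55088132-55091307 on the plus strand. Their annotated ends overlap by 112 bases, so with no strand setting known a read there cannot be assigned. The same 18 bases, at chr1:55088059-55088076, lie in an upstream window of both genes. They are shown because they are the longest match in the set, printed on the strand of each gene with the whole match in capitals.
Hspe1: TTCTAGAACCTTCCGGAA
Hspd1: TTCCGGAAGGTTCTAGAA

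These bases hold overlapping runs of 3 units, in which TTCNNGAA is followed by a further NNTTC, or GAANNTTC by a further NNGAA (each run the reverse complement of the other). Such a run was found on either strand in 0.466% of the 32817 windows. These bases start 89 bases before the Hspe1 start site and 144 bases before an internal start site of Hspd1. They are not in the window of the outermost Hspd1 start, and they stand within the annotated Hspd1 gene. Hsph1 (chr5:149614287-149636376) had 1 pair, TTCTCGAA, 33 bases before the outer of its RefSeq start sites. That start site lies 40 bases inside the 5′ end annotated by GENCODE, so the pair stands within the annotated gene and not upstream of it. In the Dnajb1 windows (gene at chr8:83608193-83612653) neither pair was found, which says only that these letters are not there.

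The inducible Hsp70 pair had the largest differences of the set. Hspa1a reached 19.4, 25.4 and 25.6 CPM in normoxia, and 28.7, 49.7 and 71.5 CPM in hyperoxia. Every hyperoxia library lay above every normoxia library, hyperoxia replicate 1 by the smallest margin. The log2 difference, hyperoxia minus normoxia, was 1.09 ± 0.32 (SE of edgeR's fit), from means of 23.5 ± 3.54 CPM in normoxia and 49.9 ± 21.4 CPM in hyperoxia (SD, n = 3 each). Hspa1b stood at 33.04, 40.4 and 44.7 CPM against 48.4, 82.2 and 128.6 CPM. Its groups did not overlap either, hyperoxia replicates 2 and 3 were again far above the others, and the log2 difference was 1.13 ± 0.34 (SE).

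These values may not be independent of each other. Of all 50-base windows of the Hspa1a transcript 58.8%, and of its 100-base windows 47.1%, occur letter for letter in Hspa1b. How the counting treated reads that match both is not given in the sources used here. Within a library, Hspa1b counts were between 1.59 and 1.80 times those of Hspa1a in all 6 libraries. The ratio averaged 1.68 ± 0.0783 in normoxia and 1.71 ± 0.0758 in hyperoxia (SD, n = 3 each), and the groups overlapped. Summed, the pair stood at 52.4, 65.8 and 70.3 CPM in normoxia and 77.1, 131.9 and 200.05 CPM in hyperoxia, a log2 difference of 1.12 ± 0.34 (SE).

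**Figure D1:**
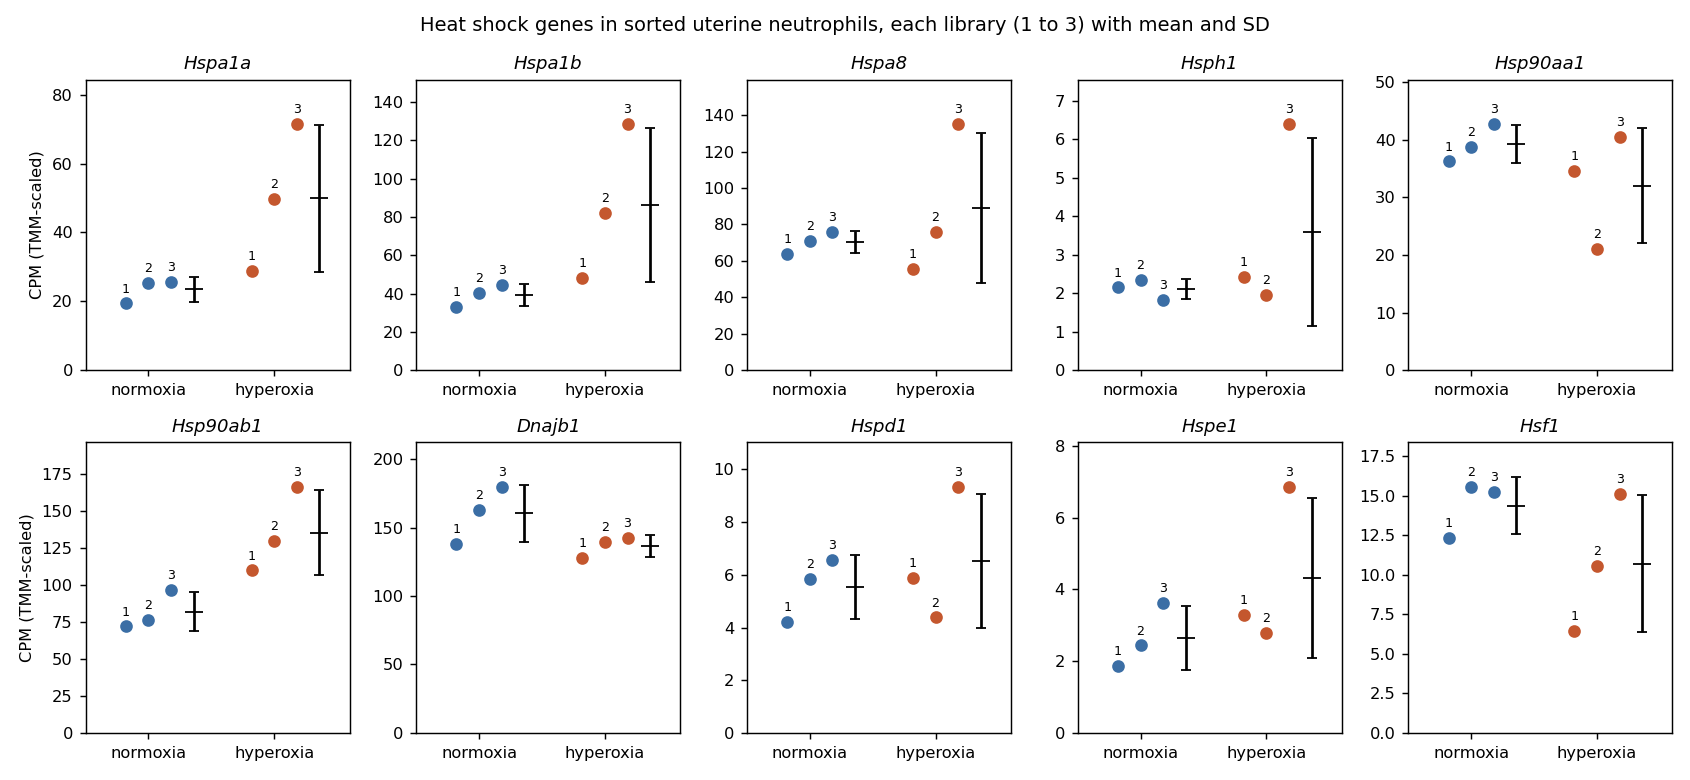
CPM (vertical axis, from 0, scaled by TMM) of the 10 heat shock genes, with 1 numbered point per library and the mean with its SD at the side of each group. Hspa1a, Hspa1b and Hsp90ab1 have every hyperoxia point above every normoxia point (for Hspa1a and Hspa1b not with library totals only), and hyperoxia replicate 3 is the highest library for 7 of the 10 genes.

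That separation depends on the scaling for Hspa1a and Hspa1b. With CPM from library totals only, hyperoxia replicate 1 fell within the normoxia range for Hspa1a (25.7 CPM, against 18.5 to 27.0 CPM) and for Hspa1b (43.3 CPM, against 31.5 to 45.0 CPM). Hsp90ab1 did not overlap under TMM, RLE or upper quartile scaling or with library totals, although with totals the nearest libraries stood at 97.5 and 98.4 CPM. All hyperoxia libraries were above for 10.1% of all genes under RLE, 10.6% under upper quartile scaling and 8.1% with totals.

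Hspa8 encodes the constitutive Hsp70 and Hsph1 its Hsp110 partner, which frees Hsp70 from bound nucleotide. Hspa8 stood at 64.0, 71.1 and 76.0 CPM in normoxia and at 55.7, 76.1 and 135.1 CPM in hyperoxia. The hyperoxia libraries spread to both sides of the normoxia libraries, and the log2 difference was 0.34 ± 0.32 (SE), or -0.09 without hyperoxia replicate 3. Hsph1 was scarce, at 2.15, 2.35 and 1.82 CPM against 2.43, 1.96 and 6.40 CPM. Only hyperoxia replicate 3 was far from the rest, and the log2 difference of 0.77 ± 0.46 (SE) was 0.05 without it.

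Dnajb1, the J-domain protein that brings clients to Hsp70, differed from Hspa1a in the sign of its difference. It stood at 137.9, 163.1 and 179.8 CPM in normoxia and at 127.7, 139.5 and 142.5 CPM in hyperoxia. The groups overlapped, with a log2 difference of -0.23 ± 0.20 (SE), or -0.08 without normoxia replicate 3.

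The Hsp90 genes had differences of opposite sign. Hsp90ab1, the constitutive form (chr17:45567775-45573271), stood at 72.1, 76.7 and 96.9 CPM in normoxia and at 109.9, 129.8 and 166.6 CPM in hyperoxia. All hyperoxia libraries were above all normoxia libraries, with a log2 difference of 0.73 ± 0.23 (SE). Hsp90aa1, the inducible form (chr12:110690605-110702728), stood at 36.2, 38.7 and 42.7 CPM against 34.6, 20.96 and 40.4 CPM. These groups overlapped, hyperoxia replicate 2 being lowest, and the log2 difference was -0.29 ± 0.26 (SE), or -0.05 without that library.

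Ratios between genes of 1 library do not depend on the scaling. The ratio of Hsp90ab1 to Hsp90aa1 counts was 1.99, 1.98 and 2.27 in normoxia and 3.18, 6.19 and 4.12 in hyperoxia. The ratio of the summed Hspa1a and Hspa1b counts to Hspa8 was 0.819, 0.926 and 0.925 in normoxia and 1.39, 1.73 and 1.48 in hyperoxia. In both ratios all hyperoxia libraries were above the normoxia range. The denominators differed as well: Hspa8 was lowest in hyperoxia replicate 1 (55.7 CPM) and Hsp90aa1 in hyperoxia replicate 2 (20.96 CPM). These ratios were formed within the selected set, and the share of other gene pairs that separate in this way was not computed. Nothing is therefore read from this separation. The Dnajb1 to Hspa8 ratio overlapped between the groups, at 2.16, 2.29 and 2.37 against 2.29, 1.83 and 1.05.

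**Figure D2:**
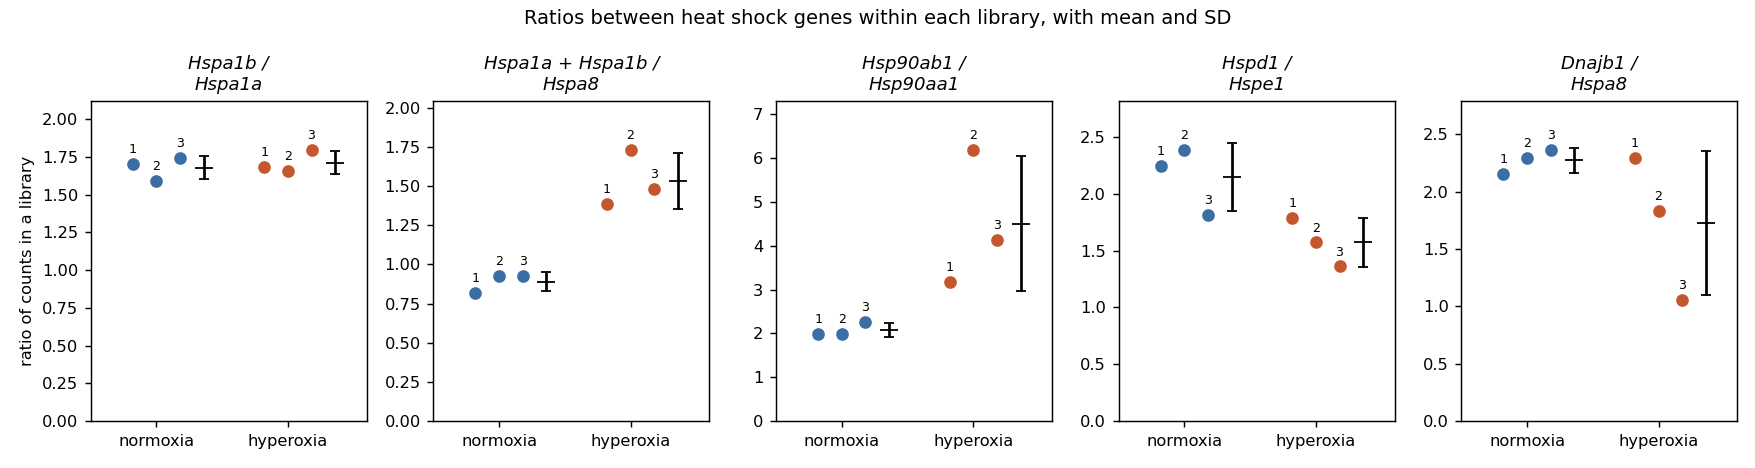
Ratio of the counts of the named genes in each library (vertical axis, from 0), with numbered points for the libraries and the mean with its SD for each group. Hspa1b to Hspa1a stays between 1.59 and 1.80, while Hspa1a plus Hspa1b to Hspa8 and Hsp90ab1 to Hsp90aa1 have all hyperoxia points above the normoxia points.

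The mitochondrial chaperonin genes were low in these cells. Hspd1, the chamber, stood at 4.21, 5.83 and 6.58 CPM in normoxia and at 5.89, 4.38 and 9.34 CPM in hyperoxia, from 180 to 444 counts in a library. Its groups overlapped and the log2 difference was 0.24 ± 0.33 (SE), or -0.11 without hyperoxia replicate 3. Hspe1, the lid, stood at 1.87, 2.44 and 3.62 CPM against 3.29, 2.79 and 6.86 CPM, from 80 to 326 counts. The groups overlapped, with a log2 difference of 0.71 ± 0.42 (SE), or 0.20 without hyperoxia replicate 3. The Hspd1 to Hspe1 ratio was 2.25, 2.39 and 1.82 in normoxia and 1.79, 1.57 and 1.36 in hyperoxia, with the nearest libraries of the groups almost equal.

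Hsf1 (chr15:76477422-76501913) stood at 12.3, 15.6 and 15.2 CPM in normoxia and at 6.43, 10.6 and 15.1 CPM in hyperoxia. Hyperoxia replicate 1 was the lowest library and the groups overlapped. The log2 difference was -0.42 ± 0.31 (SE), or -0.13 without hyperoxia replicate 1 and -0.75 without hyperoxia replicate 3. These are levels of its RNA, and the activity of the protein is not measured by them.

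Across all genes, edgeR's quasi-likelihood test with Benjamini-Hochberg adjustment called 0 of 12908 genes (0%) at an adjusted p of 0.05, and 0 of the 10 members. At an unadjusted p under 0.05 it counted 1680 genes, 13% of those tested, and 3 of the 10 members, Hspa1a, Hspa1b and Hsp90ab1. DESeq2 called 513 of 14968 genes (3.43%), among them Hspa1a and Hspa1b, both higher in hyperoxia (3.15% of genes were called higher). Their adjusted p-values in DESeq2, 0.0499 and 0.0436, lay close to the threshold of 0.05. The 3 members with hyperoxia libraries all above normoxia stand beside 9.56% of all genes with that pattern, 10.3% with the reverse and 19.9% with no overlap in either direction. Since the set was chosen with this contrast in view, nothing is read from these counts. The members' median log2 difference was 0.52, with 7 of 10 above 0, beside 0.04 over all genes tested, of which 6932 of 12908 were above 0.

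Values without 1 library show how far these rest on hyperoxia replicates 1 and 3. Without hyperoxia replicate 3 the members' median was -0.02, and Hspa1a and Hspa1b had log2 differences of 0.74 and 0.73. Without hyperoxia replicate 1 they had 1.40 and 1.45. There edgeR called 1 member, Hspa1a, at an adjusted p of 0.0483 (quasi-likelihood test), among 176 of 13499 genes (1.3%). DESeq2 called Hspa1a, Hspa1b and Hsp90ab1 there, among 1027 of 15209 genes (6.75%). Without hyperoxia replicate 2 DESeq2 called only Hspa1b (427 of 12476 genes, 3.42%). It called 0 members without hyperoxia replicate 3 (4.52% of genes) or without normoxia replicate 1 (1.78%), 2 (1.48%) or 3 (2.94%). As above, nothing is read from these calls about the set.

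Levels were compared between genes as CPM per kilobase of annotated exon. Averaged over the 6 libraries on this scale, Dnajb1 (46.3) and Hsp90ab1 (36.2) were highest, followed by Hspa1b (22.4), Hspa8 (18.5), Hspa1a (12.4) and Hsp90aa1 (9.05). The mitochondrial genes Hspe1 (2.36) and Hspd1 (2.29) and the factor gene Hsf1 (1.77) formed a lower tier, and Hsph1 (0.392) was lowest. If reads that match both Hspa1a and Hspa1b were dropped in the counting, their levels on this scale are too low, so the places of both in the order are uncertain. Ordered by mean log2 level, the widest steps were from Hsp90aa1 down to Hspd1 and from Hsf1 down to Hsph1, with mean log2 differences of 2.003 ± 0.36 and 2.26 ± 0.74 (SD, n = 6). Both had the same sign in 6 of 6 libraries.

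Neighbours in that order were compared by a two-sided exact sign permutation test over libraries, in which 6 libraries cannot give a p below 0.03125. Of the 9 neighbouring pairs 4 reached that smallest p: Hsp90ab1 above Hspa1b, Hspa8 above Hspa1a, Hsp90aa1 above Hspd1, and Hsf1 above Hsph1. Their adjusted p of 0.0703 (exact permutation test) missed 0.05. With only 4 of 9 pairs at the smallest p, the adjusted p could not pass 0.05 however wide the steps. Nothing is therefore read from the miss. For Dnajb1 and Hsp90ab1 (exact p of 0.156), Hspa1b and Hspa8 (0.375), Hspa1a and Hsp90aa1 (0.469), Hspd1 and Hspe1 (0.8125) and Hspe1 and Hsf1 (0.344), no difference beyond the spread over libraries was seen. Hspa1b stood below Hspa8 in all 3 normoxia libraries on this scale and above it in all 3 hyperoxia libraries. With the longest transcript as length, however, Hspa1b stood below Hspa8 in hyperoxia replicate 1 too.

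**Figure D3:**
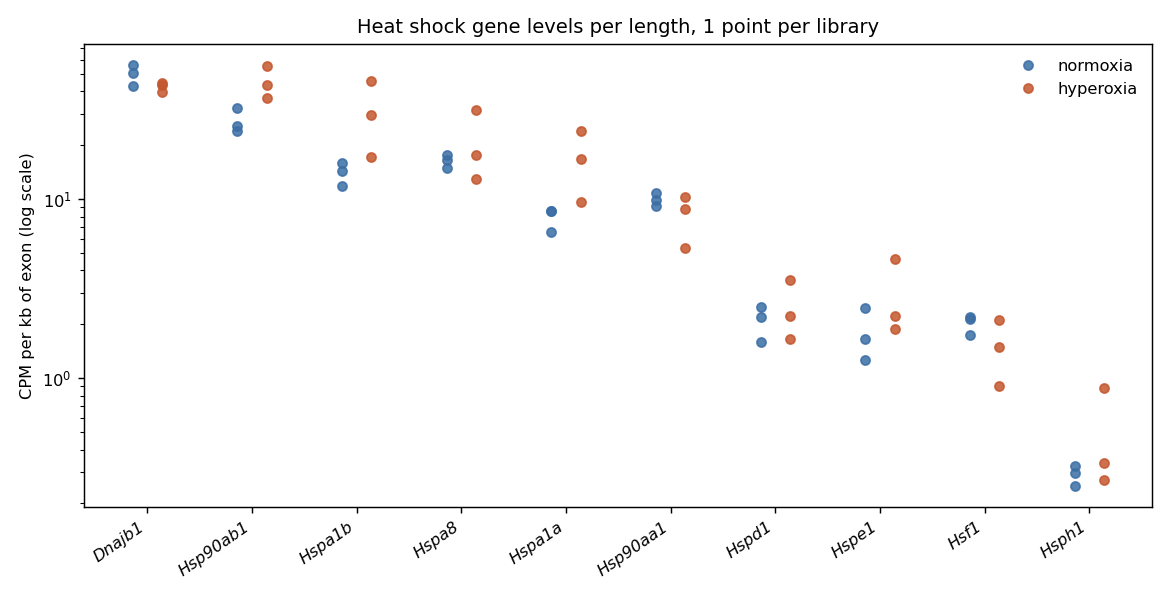
CPM per kilobase of exon (vertical axis, log scale) of the 10 genes, ordered by mean log2 level, with 1 point per library and colours for the groups. Dnajb1 and Hsp90ab1 are at the top, Hspd1, Hspe1 and Hsf1 lie between 0.905 and 4.65, and Hsph1 is lowest.

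Other chaperone genes were counted in lists. In edgeR 0 of their tested members passed an adjusted p of 0.05 in either direction, beside 0% of all genes, so counts at an unadjusted p under 0.05 are given (9.1% of all genes higher, 3.91% lower). DESeq2 also called 0 genes of the chaperone lists named here. Of 5 tested genes of the Hsp70 family outside the set, 0 were under the unadjusted p. Hspa4, an Hsp110 protein, was the most abundant at means of 33.6 CPM in normoxia and 30.6 CPM in hyperoxia, with a log2 difference of -0.13 ± 0.18 (SE). Hspa13 had a log2 difference of 0.41 ± 0.24 and Hspa4l of 0.42 ± 0.40.

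J-domain co-chaperones had a median log2 difference of -0.17 over 12 tested genes, 8 of them below 0. Only Dnajb4 was under the unadjusted p, higher in all 3 hyperoxia libraries, with 0.71 ± 0.29 (SE). Dnajc5, a J-domain protein of secretory vesicles, had the highest mean CPM of the list, though not the highest level per kilobase. Its log2 difference was -0.20 ± 0.27, and that of Dnajc2 was -0.30 ± 0.24. The Hsp70 exchange factors and partners had a median of -0.07 over 11 genes, with 1 higher and 1 lower. Bag3, a stress-inducible exchange factor, stood at 0.562, 0.909 and 1.44 CPM in normoxia and 1.31, 1.96 and 3.51 CPM in hyperoxia, with overlapping groups and a log2 difference of 1.22 ± 0.50. Grpel1, the exchange factor of mitochondrial Hsp70, was lower in all hyperoxia libraries, with -0.48 ± 0.21, and the abundant Bag1 had -0.29 ± 0.20.

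Among 11 Hsp90 co-chaperones the median log2 difference was 0.06, with 2 genes higher at the unadjusted p. Fkbp5, an immunophilin and a known glucocorticoid target, stood at 10.0, 8.43 and 8.43 CPM in normoxia and 13.46, 19.7 and 15.2 CPM in hyperoxia. The groups did not overlap, and the log2 difference was 0.85 ± 0.22 (SE). Chordc1, a heat-inducible Hsp90 partner, had 1.03 ± 0.37 and did not overlap either, whereas the abundant ATPase activator gene Ahsa1 had 0.08 ± 0.21.

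Chaperonin CCT, the cytosolic folding chamber for actin and tubulin, had 7 of 8 subunits above 0, beside 6932 of all 12908 genes tested. Its median log2 difference was 0.25, or 0.07 without hyperoxia replicate 3. Cct6a was under the unadjusted p, with 0.74 ± 0.21 (SE). Cct7 had 0.49 ± 0.22, and Cct8, the subunit with the highest mean CPM, had 0.04 ± 0.23. Small heat shock proteins had 4 tested genes of 7, all 4 above 0, and 2 under the unadjusted p. Hspb1 stood at 0.491, 0.798 and 1.52 CPM in normoxia and at 1.09, 3.18 and 4.50 CPM in hyperoxia, and Cryab had a log2 difference of 1.48 ± 0.60. Both are abundant in muscle, and smooth muscle markers summed to 15.6 to 22.1 CPM in normoxia and 24.4 to 50.3 CPM in hyperoxia. Those markers were highest in hyperoxia replicate 2, whereas Hspb1 (4.50 CPM) and Cryab (2.23 CPM) were highest in hyperoxia replicate 3. The part of muscle cells in the Hspb1 and Cryab values was not tested. Hspb3 had 0 counts in every library, which allows up to 3 counts, or 0.0486 to 0.0776 CPM by library total.

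The remaining lists were relatives and partners of Hsf1, mitochondrial quality-control genes (proteases, a disaggregase and a co-chaperone) and endoplasmic reticulum (ER) chaperones. Of 5 genes for other heat shock factors and binding proteins 3 were tested, and 0 were under the unadjusted p. Hsbp1, an inhibitor of Hsf1 trimers, had a log2 difference of -0.14 ± 0.22 (SE) and Hsf2bp of 0.82 ± 0.71. Of 7 mitochondrial quality-control genes 0 were under it, with a median of -0.21. Clpp, a matrix protease, had -0.48 ± 0.37 and Yme1l1, a protease of the inner membrane, -0.23 ± 0.19. ER chaperones, which serve secreted proteins, had a median of 0.06 over 13 genes, 2 higher and 1 lower at the unadjusted p. Sdf2l1 had 0.89 ± 0.25 and Dnajb9 -0.76 ± 0.27, and Hspa5, the ER Hsp70, had means of 771 CPM in normoxia and 785 CPM in hyperoxia.

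**Figure D4:**
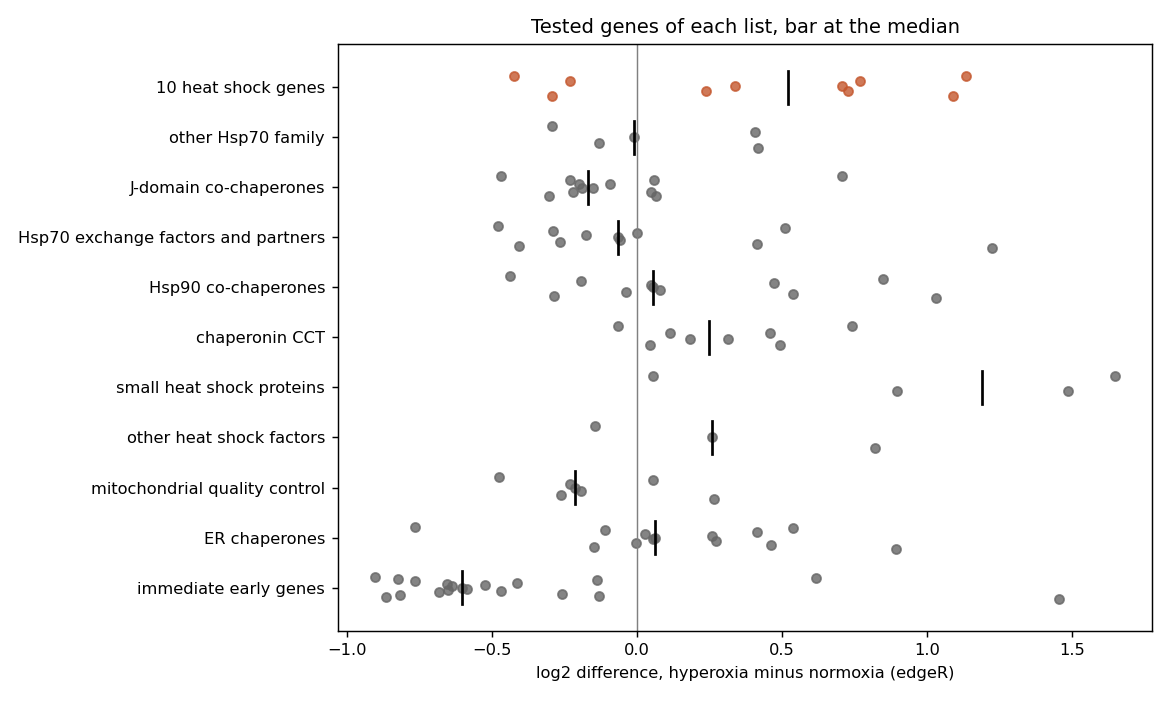
Log2 difference, hyperoxia minus normoxia (horizontal axis, edgeR), of each tested gene in each list, with a bar at the list's median. The 10 heat shock genes have a median of 0.52, the mitochondrial quality-control genes -0.21 and the immediate early genes -0.60.

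Immediate early genes, many of them for transcription factors, answer rapidly to a wide range of stimuli. Their median log2 difference was -0.60 over 19 genes, 17 of them below 0, with 7 lower and 2 higher at the unadjusted p. Without hyperoxia replicate 3 it was -0.50, beside -0.02 for the heat shock genes. Egr2 had a log2 difference of -0.68 ± 0.21 (SE) and Dusp1, the most abundant, of -0.41 ± 0.31, whereas Klf4 had 1.45 ± 0.28 and was the only gene of this list that DESeq2 called. Their summed level was 79081 to 87215 CPM in normoxia and 40731 to 75367 CPM in hyperoxia.

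Summed macrophage, stromal, endothelial, smooth muscle and B cell markers were highest in the same 2 libraries as Hspa1a and Hspa1b, but T and NK cell and epithelial markers were not. Neutrophil markers differed between these 2 libraries. Their sum was the highest of all libraries in hyperoxia replicate 2 (105944 CPM) and the lowest in hyperoxia replicate 3 (40915 CPM). Hyperoxia replicates 2 and 3, where Hspa1a and Hspa1b were highest, had summed macrophage markers of 2810 and 3028 CPM and stromal markers of 215 and 248.5 CPM. Endothelial markers there summed to 67.0 and 46.4 CPM, and smooth muscle markers to 50.3 and 32.5 CPM. Hyperoxia replicate 1 had 1906 CPM of macrophage and 35.9 CPM of stromal markers, and the normoxia libraries at most 1508 and 58.0 CPM. At an unadjusted p under 0.05, 9 of 12 macrophage, 7 of 9 endothelial, 8 of 9 tested stromal and 5 of 6 smooth muscle markers were higher and 0 were lower. Of all genes, 9.1% were higher and 3.91% lower. DESeq2 called 8, 6, 4 and 3 of these lists higher at an adjusted p of 0.05 (3.15% of all genes), while edgeR called 0. Some markers passed the count filter only through hyperoxia and could only come out higher, such as Tek. It had 0, 1 and 1 counts in normoxia and 22, 41 and 28 in hyperoxia. Only Pax5, of the B cell list, had 0 counts in all normoxia libraries, and no marker had 0 counts in all hyperoxia libraries. T and NK cell markers summed to 2.78 to 9.63 CPM in normoxia and 4.78 to 20.9 CPM in hyperoxia, and B cell markers to 1.33 to 2.44 and 1.97 to 7.41 CPM. Epithelial markers summed to 80.0 to 177.4 CPM in normoxia and 11.5 to 226.7 CPM in hyperoxia. The part of these cells in the Hspa1a and Hspa1b values was not tested.

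**Figure D5:**
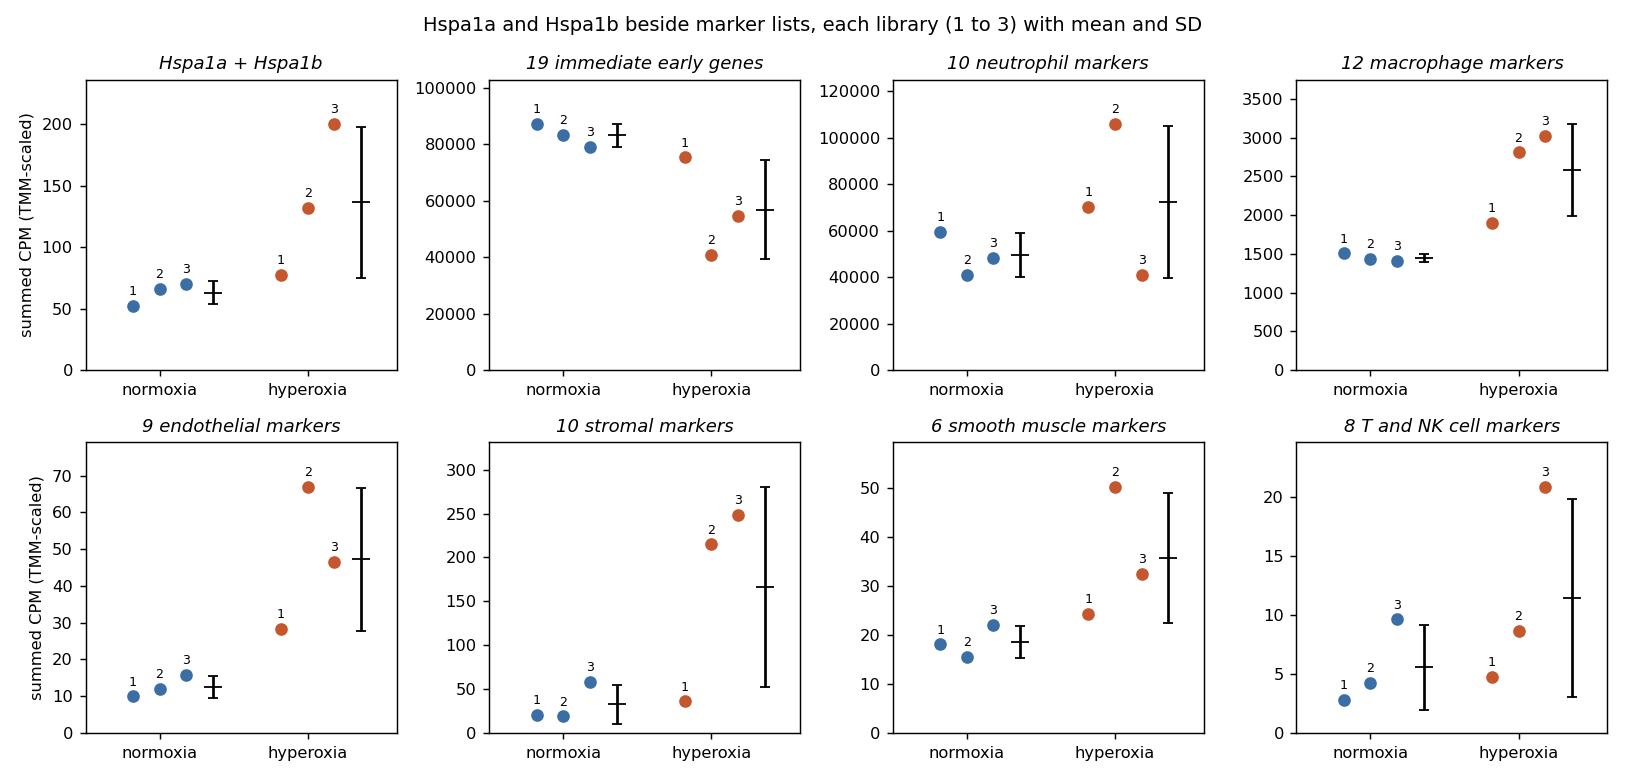
Summed CPM (vertical axes, from 0, scaled by TMM) of Hspa1a plus Hspa1b, of the immediate early genes and of 6 marker lists, with numbered points for the libraries and the mean with its SD. Hyperoxia replicates 2 and 3 are the highest libraries for Hspa1a plus Hspa1b and for macrophage, stromal, endothelial and smooth muscle markers, and the 2 lowest for immediate early genes.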

How the data were processed

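The values the authors deposited are raw whole-number counts for every gene, not normalized, in 1 file per library. STAR 2.4.2a, DESeq2 1.16.1 and build GRCm38 are named in the submitters' processing notes, while the counting program, strand setting and annotation release are not given in the sources used here. Of 43432 gene IDs, 42548 matched GENCODE M21, which gave symbols, coordinates and exon lengths. Counts were filtered with filterByExpr (12908 of 23147 genes with a count kept), scaled by TMM and compared with edgeR 4.0.16 (robust quasi-likelihood, R 4.3.3), with Benjamini-Hochberg adjusted two-sided p-values across every gene tested. SEs were derived from the F statistic. Log2 CPM for library profiles used a prior count of 2. DESeq2 1.42.0 and limma 3.58.1 were alternatives, with other scalings, other filters, a threshold of 0.1 and each library left out. The fit was tested on simulated data. It recovered 16 of 203 genes changed 2-fold (7.88%), 133 of 209 changed 4-fold (63.6%) and 162 of 188 changed 8-fold (86.2%).

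The members and lists were chosen with earlier results of these data known. Named genes were all members, and of each list the 2 genes with the lowest p and the gene with the highest mean CPM. The 5 genes with profiles nearest to Hspa1a plus Hspa1b were also named. Hspb3 and Pax5 were added after their values were seen, and marker lists are given mainly as sums and counts. Part of the genotype shared by all mice is not reported here. Libraries were grouped by the housing label, and replicate numbers follow deposition order. Limits from 3 counts cover counting error only.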

Additional observations from a re-analysis of the deposited data

How the results depend on the processing

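With edgeR, 0 genes were called higher and 0 lower. DESeq2 called 472 higher and 41 lower, limma-voom with sample quality weights 35 and 1, edgeR without a filter 205 and 9, and edgeR at an adjusted p of 0.1 called 28 and 2, none of them a member. With each library left out in turn, edgeR called 0 to 164 genes higher and 0 to 12 lower, with calls only where hyperoxia replicate 1 was left out. limma-voom, 3 other scalings, a filter of 10 counts in at least 3 libraries and the summed Hspa1a and Hspa1b gave 0 in both directions. Leaving out each library with DESeq2 and the overlap of groups under each scaling were added after the data were seen.

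Of 141 log2 differences of members under alternatives, 139 moved by less than the spread between libraries. The exceptions were Dnajb1 without normoxia replicate 3 and Hsph1 without hyperoxia replicate 3, and Hspa8 and Hspd1 changed sign without hyperoxia replicate 3. The cause of these moves was not tested. Leaving out 1 of 3 libraries can hardly move a group mean by more than that spread, so the 139 say little about stability. Hspe1, for instance, is counted among them, although its log2 difference went from 0.71 to 0.20 without hyperoxia replicate 3. Neighbouring levels gave 0 pairs past the adjusted threshold with the longest transcript as length or with library totals. A pair can pass there only if most pairs reach the smallest p together, so these 0 pairs say little about stability. With 1 library left out the exact test cannot pass 0.05, so its 0 pairs there say nothing about stability. With the longest transcript as length Hspa8 preceded Hspa1b and Hsf1 preceded Hspe1 and Hspd1, and without normoxia replicate 1 or 2 Hspe1 preceded Hspd1. No paired analysis was possible because the labels give no number that the groups share.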

Other observations

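The 5 genes whose library profile was nearest to that of Hspa1a plus Hspa1b were Tmem109, Ndufc2, Crip1, Ccl7 and Gusb. They were sought among 5172 genes averaging 3 or more in log2 CPM. Members and genes with only a gene-model name, such as Gm or Rik names, had been left out of that pool. Likeness was the root mean square difference of log2 CPM centred on the mean of the 6 libraries, which was 0.12 for Tmem109, 0.14 for Ndufc2 and 0.19 for Crip1, Ccl7 and Gusb. Tmem109, a membrane protein gene, stood at 5.31, 5.99 and 6.65 CPM in normoxia and at 6.22, 12.9 and 16.8 CPM in hyperoxia. Ccl7, a chemokine that attracts monocytes, stood at 9.13, 10.0 and 11.1 CPM against 17.3, 25.8 and 36.7 CPM. Ndufc2 encodes a subunit of respiratory complex I, Crip1 a LIM-domain protein and Gusb a lysosomal glucuronidase. By the same measure the nearest member outside the pair was Hsp90ab1 at 0.29, and the farthest were Hsp90aa1 at 0.82, Hsf1 at 0.76 and Dnajb1 at 0.72.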
